A study of Mus musculus with 23 samples.

Results

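Secondary follicle oocytes made in culture were set against secondary follicle oocytes taken from the animal, gene by gene. A gene entered the comparison where it had at least 1 FPKM (fragments per kilobase of transcript, scaled to the mapped fragments of the library, a level per length) in either group, which held for 11151 of the 22784 genes in the table (48.9%). The quantity compared is the log2 ratio, log2((FPKM in culture + 1)/(FPKM in the animal + 1)), so that a positive value means higher in culture, and a gene is called higher or lower where this ratio reaches 1 or -1, that is 2-fold. The table holds 1 pooled value per gene and group, so genes are ranked by size and no difference could be set against the spread between samples.

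The study sequenced poly(A) RNA from 23 samples in 8 groups along oocyte development in culture and in the mouse, and 3 samples stand behind each secondary follicle group. The culture oocytes came from female embryonic stem (ES) cells of the strain cross C57BL/6 X 129, turned over 6 days into primordial germ cell-like cells (PGCLCs). For each reconstituted ovary, 5000 sorted PGCLCs were combined with 50000 gonadal somatic cells of female E12.5 embryos and kept on membranes for 21 days. The medium held 10% fetal calf serum, 150 µM ascorbic acid and 55 µM 2-mercaptoethanol, its base was changed at day 4, and 500 nM ICI182780, an estrogen receptor antagonist, was present from day 7 to day 10. The animal oocytes were B6D2F1, sorted by their BVSC transgenes from ovaries of females 8 days after birth. Each library of either group held 337 to 812 oocytes. Strain, route and age differ together between the groups and cannot be told apart. At metaphase II (MII), the groups used below are culture oocytes after 11 days of follicle growth and 16 hours of maturation, and oocytes of B6D2F1 females aged 8 weeks. At the germ cell stage they are PGCLCs 3 days after reaggregation and primordial germ cells (PGCs) that B6D2F1 embryos held at E12.5.

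In a secondary follicle the oocyte is arrested in meiotic prophase and growing, enclosed by layers of granulosa cells that feed it through gap junctions. It builds its zona pellucida, secretes growth factors of the TGF-beta family to the granulosa cells, and stores maternal messenger RNA and protein for the egg and the embryo. The transcription factors Figla, Nobox, Lhx8 and Sohlh1 are known to drive this programme in the mouse.

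The markers of a growing oocyte stood at the top of both columns. Zp3, Padi6, Uchl1, Gdf9, Zbed3, Zp2, Ldhb, Nlrp14 and Tle6 were among the 10 most abundant genes of either group, which makes 9 shared genes of 10. The 10th was Gm15698 in culture, at 2447 FPKM against 1892 FPKM in the animal, and Zp1 in the animal, which had 1618 FPKM in culture and 1991 FPKM in the animal. Of the 100 most abundant genes 86 were shared, and of the 500 most abundant 448. Across the 11151 genes, which are not independent replicates, Spearman's rho was 0.970 and Pearson's r of the log2 values 0.972.

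Most genes were close between the groups. The median log2 ratio was 0.00042, the quartiles were -0.22 and 0.24, and 9773 genes (87.6%) lay within 1.5-fold. Past 2-fold on the higher side in culture were 248 genes (2.22% of those compared), and on the lower side 94 (0.843%). Ratios of 4-fold or more were found for 18 genes on the higher side and 9 on the lower side. The 248 higher genes carried 0.921% of the summed FPKM in culture, against 0.311% in the animal, and the 94 lower genes 0.175% in culture, against 0.451% in the animal. The genes past 2-fold thus make up a small part of either message pool. Of the higher genes, 82 were under 1 FPKM in the animal, and of the lower genes 33 were under 1 FPKM in culture. Nearest to the 1 FPKM limit were Vamp1, inside it at 0.891 FPKM in culture and 1.00 FPKM in the animal, and Zfp292, outside it at 0.615 FPKM in culture and 1.00 FPKM in the animal.

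**Figure D1:**
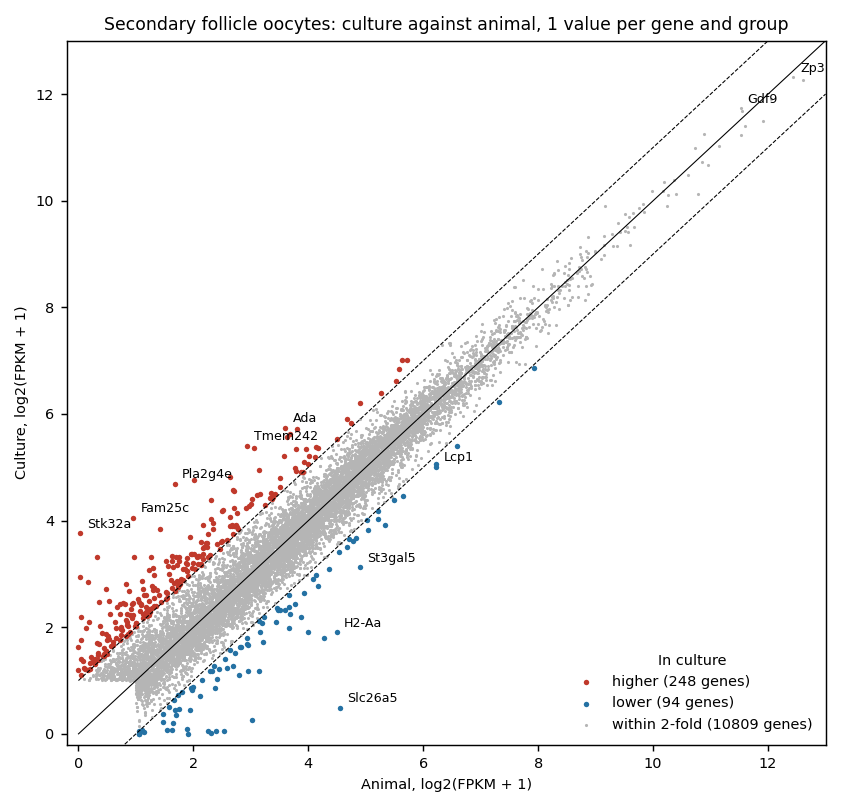
Each point is 1 of the 11151 genes, with log2(FPKM + 1) in culture oocytes on the vertical axis and in animal oocytes on the horizontal axis. The solid line marks equal values and the dashed lines 2-fold. The 248 genes higher in culture and the 94 lower lie mostly at low and middle levels, and Zp3 and Gdf9 lie near the line of equal values at the top.

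The share of calls varied with level. Among genes whose higher group had 1 to 3 FPKM, 2.31% were higher in culture and 1.26% lower, and at 3 to 10 FPKM 3.87% were higher and 1.07% lower. At 10 to 30 FPKM these shares were 1.78% and 0.738%, and at 30 to 100 FPKM 0.999% and 0.454%. Of the 119 genes with 300 FPKM or more, 0 were higher and 0 lower. The higher calls outnumbered the lower calls in each bin that held a call. The sequencing depth of the libraries is unknown, so how far counting error sets these shares was not tested.

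**Figure D2:**
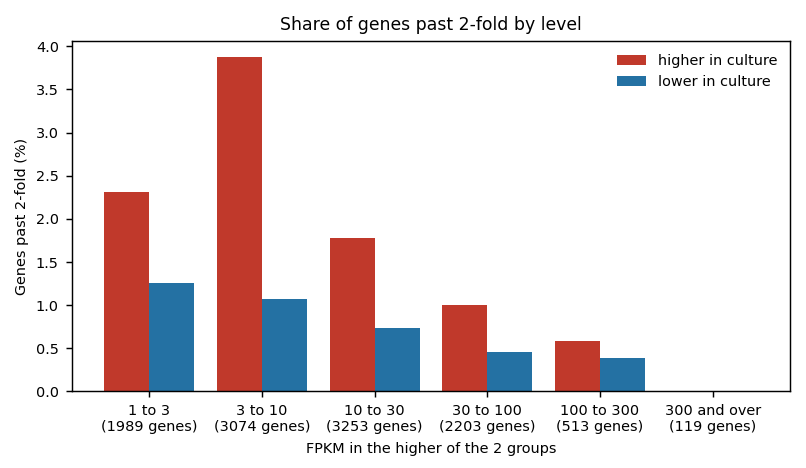
Bars give the percentage of genes at least 2-fold higher (left bar) or lower (right bar) in culture, by the FPKM of the higher of the groups. The share of higher genes peaks at 3.87% in the bin from 3 to 10 FPKM and is 0 in the 119 genes with 300 FPKM or more.

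Genes furthest above and below the animal were ranked among those with an established name and 10 FPKM or more in either group, and their known roles are mixed. The first were Stk32a, a serine/threonine kinase gene with 12.6 FPKM in culture and 0.0148 FPKM in the animal, and Fam25c, with 15.6 FPKM in culture and 0.940 FPKM in the animal. Pla2g4e, a cytosolic phospholipase A2, had 24.9 FPKM in culture and 2.2 FPKM in the animal. On the lower side, Slc26a5, which encodes prestin, the motor protein of cochlear outer hair cells, had 0.403 FPKM in culture and 22.4 FPKM in the animal. H2-Aa, the alpha chain of a class II histocompatibility molecule, had 2.75 FPKM in culture and 21.5 FPKM in the animal. The log2 ratio was 3.74 for Stk32a, the highest of the ranked genes, and -4.06 for Slc26a5, the lowest.

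The promoters of Fam25c and Pla2g4e, higher in culture, and of Slc26a5 and H2-Aa, lower in culture, are shown because these genes have the largest ratios of each sign among ranked genes with a RefSeq promoter that could be printed. Each run is 300 bases on the minus strand of GRCm38.p6, 250 before the RefSeq start and 50 after it. In the order named, they lie at chr14:34355344-34355643, chr2:120245286-120245585, chr5:21865555-21865854 and chr17:34287774-34288073. For Fam25c and Pla2g4e the start used lies inside the RefSeq gene span, which reaches upstream to chr14:34358339 and chr2:120245630. Capitals mark matches on either strand to TAATTG, the core that the oocyte factor NOBOX binds (CAATTA on the other strand), or to the CCAAT box (ATTGG on the other strand).
Fam25c: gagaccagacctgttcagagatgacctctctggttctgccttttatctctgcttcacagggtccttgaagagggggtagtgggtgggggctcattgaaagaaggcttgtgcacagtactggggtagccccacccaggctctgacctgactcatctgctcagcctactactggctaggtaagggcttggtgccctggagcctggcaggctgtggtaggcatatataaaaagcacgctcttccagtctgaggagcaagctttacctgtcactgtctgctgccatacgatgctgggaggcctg
Pla2g4e: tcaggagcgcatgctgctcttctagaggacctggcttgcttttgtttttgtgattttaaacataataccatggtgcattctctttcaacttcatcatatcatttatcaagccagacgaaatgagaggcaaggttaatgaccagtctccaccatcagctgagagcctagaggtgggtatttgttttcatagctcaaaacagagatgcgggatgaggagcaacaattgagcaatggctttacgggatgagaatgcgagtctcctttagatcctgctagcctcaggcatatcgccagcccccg
Slc26a5: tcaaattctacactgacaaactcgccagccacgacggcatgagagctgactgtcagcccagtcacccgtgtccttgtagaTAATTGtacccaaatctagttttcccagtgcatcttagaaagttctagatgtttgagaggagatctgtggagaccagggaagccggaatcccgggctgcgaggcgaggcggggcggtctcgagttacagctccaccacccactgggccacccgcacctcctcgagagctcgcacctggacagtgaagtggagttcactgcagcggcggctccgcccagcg
H2-Aa: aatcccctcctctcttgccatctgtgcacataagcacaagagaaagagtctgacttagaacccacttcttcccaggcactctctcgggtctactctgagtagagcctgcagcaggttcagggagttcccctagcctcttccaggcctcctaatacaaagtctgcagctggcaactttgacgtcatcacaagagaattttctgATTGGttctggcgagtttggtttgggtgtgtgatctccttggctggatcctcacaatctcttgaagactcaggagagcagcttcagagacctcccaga
Slc26a5 held 1 TAATTG at position 81 of its run, counted from the 5′ end, and H2-Aa held 1 ATTGG at position 203. The other runs held neither motif. Over 32851 RefSeq promoters of this length, 8.0% held TAATTG or CAATTA and 37.4% CCAAT or ATTGG, so a match is common and is given as a description. Fam25c had 2 CG dinucleotides in its run, Pla2g4e 7, Slc26a5 18 and H2-Aa 3.

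Behind the first 8 genes on the higher side came enzymes, surface proteins and regulators. Ada, which encodes adenosine deaminase, had 52.7 FPKM in culture and 11.1 FPKM in the animal. Steap4, a metalloreductase gene, had 19.9 FPKM in culture and 3.94 FPKM in the animal. Gsto2, a glutathione transferase gene of the omega class, had 29.9 FPKM in culture and 7.79 FPKM in the animal. Enzyme genes of this stretch also included Gnmt, glycine N-methyltransferase, with 14.2 FPKM in culture and 3.47 FPKM in the animal. At the membrane, Fxyd6, a regulator of the sodium pump, had 48.4 FPKM in culture and 11.9 FPKM in the animal. Ly6e, a lipid-anchored surface protein gene, had 46.4 FPKM in culture and 11.4 FPKM in the animal. Efna1 and Itgb5, an ephrin and an integrin subunit, followed with 17.4 and 17.1 FPKM in culture, against 4.69 and 4.65 FPKM in the animal. Ccdc109b, a subunit of the mitochondrial calcium uniporter, had 51.4 FPKM in culture and 13.0 FPKM in the animal. These genes are transcribed at moderate levels in animal oocytes as well, at 3.47 to 13.0 FPKM. The remaining genes of the stretch were Cstb (22.9 FPKM in culture, 5.41 FPKM in the animal), an inhibitor of cathepsins, the homeobox gene Hoxd9 (22.5 FPKM in culture, 5.55 FPKM in the animal) and Htatip2 (11.9 FPKM in culture, 2.85 FPKM in the animal).

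Genes lower in culture had smaller ratios after the first few. St3gal5, which makes the ganglioside GM3, had 7.73 FPKM in culture and 28.8 FPKM in the animal. Hmgn3, a nucleosome-binding protein gene, had 2.46 FPKM in culture and 18.2 FPKM in the animal. Further down the ranking, Lcp1, the actin bundler L-plastin, had 31.2 FPKM in culture and 74.0 FPKM in the animal. Myot, known as a protein of muscle Z-discs, had 14.2 FPKM in culture and 39.5 FPKM in the animal, and at most 0.217 FPKM in each of the other 6 groups of the study. Other known roles of these genes are diverse. Ndfip2, an adaptor of Nedd4-type ubiquitin ligases, had 41.0 FPKM in culture and 94.9 FPKM in the animal. Klhl9, a substrate adaptor of a cullin ligase, had 4.21 FPKM in culture and 11.6 FPKM in the animal. Ufc1, the conjugating enzyme of the ubiquitin-like modifier UFM1, had 15.4 FPKM in culture and 36.1 FPKM in the animal, and Pigt, of the GPI transamidase, had 6.5 FPKM in culture and 16.0 FPKM in the animal. Smc1b, the meiosis-specific cohesin subunit, had 13.1 FPKM in culture and 31.8 FPKM in the animal. Alad, of haem synthesis, had 3.98 FPKM in culture and 11.1 FPKM in the animal. Tcstv3 had 5.88 FPKM in culture and 17.0 FPKM in the animal, and belongs to a cluster of near-identical copies, so its value is uncertain. With a pseudocount of 5 in place of 1, 33 of the 40 ranked genes still reached 2-fold. Those that did not were all on the lower side, among them Wls, Lrrn4, Alad, Klhl9, Zfp869 and Pigt.

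**Figure D3:**
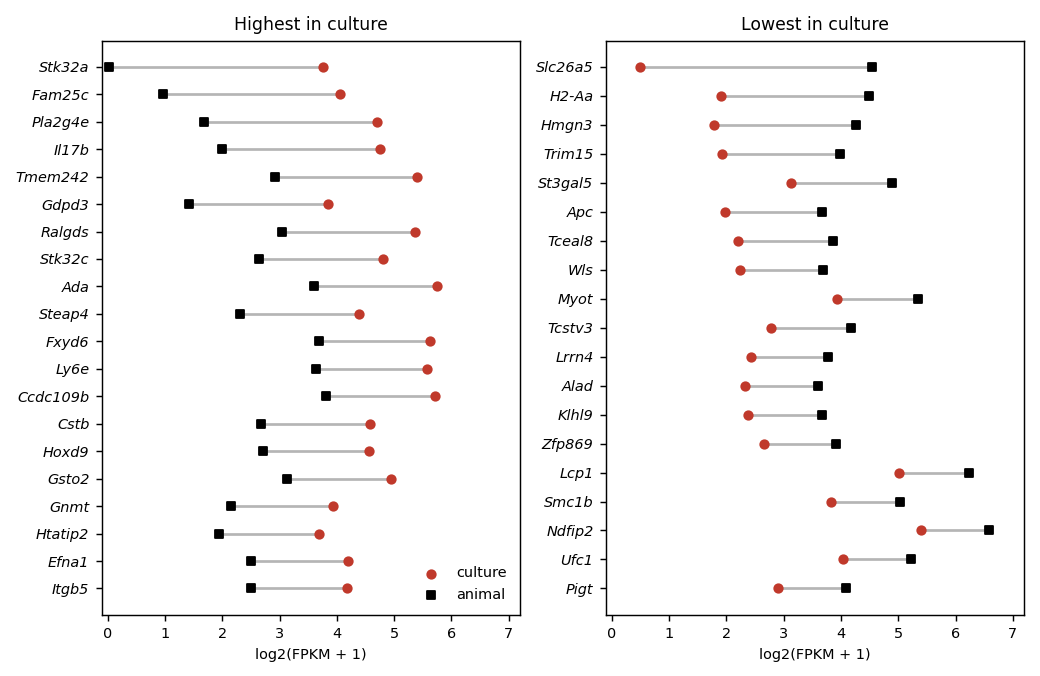
For the 20 genes furthest above the animal (left) and the genes furthest below it (right, without a ranked gene that is not reported here), circles give log2(FPKM + 1) in culture oocytes and squares in animal oocytes. Stk32a and Slc26a5 span the widest gaps (log2 ratios 3.74 and -4.06), and the last genes of the panels lie at 1.68 and -1.18.

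The zona, secreted factor, maternal effect and NLRP lists held no call. Over all genes compared 2.22% were higher and 0.843% lower, and of the 119 genes with 300 FPKM or more 0 were called. Lists this short would hold few calls at those shares. Of 11 genes for the zona pellucida and oocyte-secreted factors, 0 were higher and 0 lower in culture (median log2 ratio 0.09, against 0.00042 over all genes compared). The zona genes were on the lower side of equality, with a log2 ratio of -0.12 for Zp3, -0.30 for Zp1 and -0.42 for Zp2, while of the growth factor genes Bmp15, Gdf9 and Bmp6 had 0.49, 0.21 and 0.09, and Fgf8 -0.11. Among 19 genes of the subcortical maternal complex and other maternal effect genes 0 were called, with a median of -0.12. The widest of them were Nlrp5, a member of that complex, at -0.65, and Hsf1, the heat shock transcription factor, at 0.58. The 11 NLRP genes of the oocyte, some of which are close copies whose single values are uncertain, had a median of -0.29 and 0 calls. Nlrp4f had 294 FPKM in culture and 411 FPKM in the animal, while Nlrp9a had 105 FPKM in culture and 75.7 FPKM in the animal.

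The transcription factors of the growing oocyte were split around equality. Nobox had 389 FPKM in culture and 367 FPKM in the animal, and Lhx8 134 FPKM in culture and 115 FPKM in the animal. Figla, which controls the zona genes, had 65.3 FPKM in culture and 117 FPKM in the animal, and Sohlh1 had 23.2 FPKM in culture and 36.9 FPKM in the animal. The 1 called gene of the 15 on this list was Sohlh2, the partner of Sohlh1, at 4.42 FPKM in culture and 0.902 FPKM in the animal (log2 ratio 1.51). Figla and Sohlh1 on the one hand and Sohlh2 on the other thus lay on opposite sides.

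Signalling and cell contact genes showed few calls, as did all genes compared (2.22% higher and 0.843% lower). In the Kit and PI3K pathway, which wakes dormant follicles, 0 of 22 genes were called, and 17 of the 22 lay below 0 (median -0.21). The receptor gene Kit had 73.3 FPKM in culture and 102 FPKM in the animal, and Akt1 had 72.0 FPKM in culture and 54.0 FPKM in the animal. Prophase arrest genes had 0 of 22 called and a median of 0.00. Gpr3, the receptor that keeps cyclic AMP high in the oocyte, had 16.9 FPKM in culture and 23.1 FPKM in the animal, and the phosphatase gene Cdc25b had 61.0 FPKM in culture and 39.1 FPKM in the animal. Of 15 contact genes, Gja4, the oocyte connexin, had 492 FPKM in culture and 426 FPKM in the animal. Pvrl2, a nectin, was called higher at 13.9 FPKM in culture and 5.59 FPKM in the animal. Myo10, the myosin of filopodia, had 20.9 FPKM in culture and 42.7 FPKM in the animal, which fell just short of 2-fold on the log2 scale used.

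Wnt genes gave calls on both sides. Of 24 measured, 1 was higher and 2 were lower, with a median of -0.10. The lower genes were Apc, the scaffold of the beta-catenin destruction complex, at 2.95 FPKM in culture and 11.7 FPKM in the animal, and Wls, the carrier that brings Wnt proteins to the surface, at 3.73 FPKM in culture and 11.9 FPKM in the animal. Tcf7l1, a transcription factor of the pathway, was the higher one at 1.83 FPKM in culture and 0.413 FPKM in the animal. Ctnnb1, beta-catenin itself, had 90.7 FPKM in culture and 102 FPKM in the animal. BMP and TGF-beta genes had 0 of 16 called, with Id3, a target of BMP signalling, at 71.3 FPKM in culture and 103 FPKM in the animal. Among 11 retinoic acid and estrogen genes, 0 were called. Their widest members with 10 FPKM or more were Crabp2 (25.4 FPKM in culture, 12.4 FPKM in the animal) and Dhrs3 (6.86 FPKM in culture, 14.1 FPKM in the animal), of retinoid binding and turnover. The estrogen receptor gene Esr2 had 17.8 FPKM in culture and 12.0 FPKM in the animal.

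Germline RNA and meiosis genes leaned to the lower side. Of 19 genes of the piRNA pathway, which silences transposons, 14 lay below 0 and the median was -0.32. Piwil2 was called lower at 11.7 FPKM in culture and 27.6 FPKM in the animal, and its paralogue Piwil1 was called higher at 5.08 FPKM in culture and 1.65 FPKM in the animal. The germ cell helicase gene Ddx4 had 91.7 FPKM in culture and 146 FPKM in the animal. Meiotic prophase genes, whose proteins pair and recombine chromosomes, had 15 of 18 below 0 and a median of -0.27, with Smc1b as their 1 call. Sycp1 and Sycp3, of the synaptonemal complex, had 5.65 and 32.9 FPKM in culture, against 11.3 and 47.3 FPKM in the animal. The 24 genes of messenger RNA storage and decay had a median of -0.24 and 0 calls. Within them Zfp36l2, a decay factor, had 16.3 FPKM in culture and 28.2 FPKM in the animal, and Pabpn1l had 363 FPKM in culture and 213 FPKM in the animal.

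Chaperone genes had the lowest median of the 38 lists. Of 16 measured heat shock and chaperone genes, 15 lay below 0, with a median of -0.44, although 0 reached 2-fold. Their summed level was 1187 FPKM in culture and 1633 FPKM in the animal. Hsp90aa1, a cytosolic chaperone, had 121 FPKM in culture and 217 FPKM in the animal. The heat shock factor gene Hsf2 had 14.1 FPKM in culture and 25.1 FPKM in the animal, and Hsf1, the 1 member above 0, had 64.8 FPKM in culture and 42.9 FPKM in the animal. Genes of the unfolded protein response had 0 of 25 called and a median of -0.08, among them the endoplasmic reticulum chaperone Hsp90b1 at 183 FPKM in culture and 287 FPKM in the animal. Oxidative stress genes had 2 of 27 called. Prdx6, a peroxiredoxin, had 9.25 FPKM in culture and 3.90 FPKM in the animal. Ftl1, the ferritin light chain, had 35.5 FPKM in culture and 16.2 FPKM in the animal, and its single value is uncertain because the genome holds near-identical copies. For p53 targets and for damage checkpoint and apoptosis genes, 0 of 12 and 0 of 15 were called.

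The metabolic lists held no call, beside shares of 2.22% higher and 0.843% lower over all genes compared. The 71 nuclear genes of oxidative phosphorylation had a median of -0.09 and ranged from -0.58 to 0.33, while the same list had a median of 1.31 between the MII groups. Glycolysis and cholesterol synthesis had 0 calls of 14 and 0 of 19, with medians of -0.05 and -0.07. Genes of fatty acid synthesis, storage and use had 15 of 17 above 0 and a median of 0.12, without a call. Dgat2, which makes triglyceride, had 30.2 FPKM in culture and 19.8 FPKM in the animal, and Fasn, fatty acid synthase, had 10.1 FPKM in culture and 6.54 FPKM in the animal. By gene name, 64 cytosolic ribosomal protein genes had a median of -0.08, 72 mitochondrial ribosomal protein genes 0.12 and 43 proteasome genes 0.07, with 0 calls in each of these families.

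The DNA methylation and the histone methylation and Polycomb lists held no call, and imprinted genes gave calls on both sides. Over all genes compared, 2.22% were higher and 0.843% lower. Of 18 genes of DNA methylation and its protection, 0 were called. Dnmt3l, the cofactor of methylation in the growing oocyte, had 62.1 FPKM in culture and 54.7 FPKM in the animal, and Dnmt3a had 29.7 FPKM in culture and 34.6 FPKM in the animal. Kdm1b, a demethylase needed for maternal imprints in the mouse, had 202 FPKM in culture and 315 FPKM in the animal, and Uhrf1 had 304 FPKM in culture and 466 FPKM in the animal. Of 26 histone methylation and Polycomb genes 0 were called, the widest being Cbx7 at 5.90 FPKM in culture and 12.1 FPKM in the animal. Among 23 imprinted genes, Snrpn had 8.15 FPKM in culture and 3.25 FPKM in the animal, and Meg3, a maternally expressed long noncoding RNA, had 1.64 FPKM in culture and 0.214 FPKM in the animal. Dio3, the deiodinase gene of the same imprinted domain as Meg3, was on the lower side, with 17.2 FPKM in culture and 35.9 FPKM in the animal. With no allelic values, these levels say nothing of which parental copy was read.

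**Figure D4:**
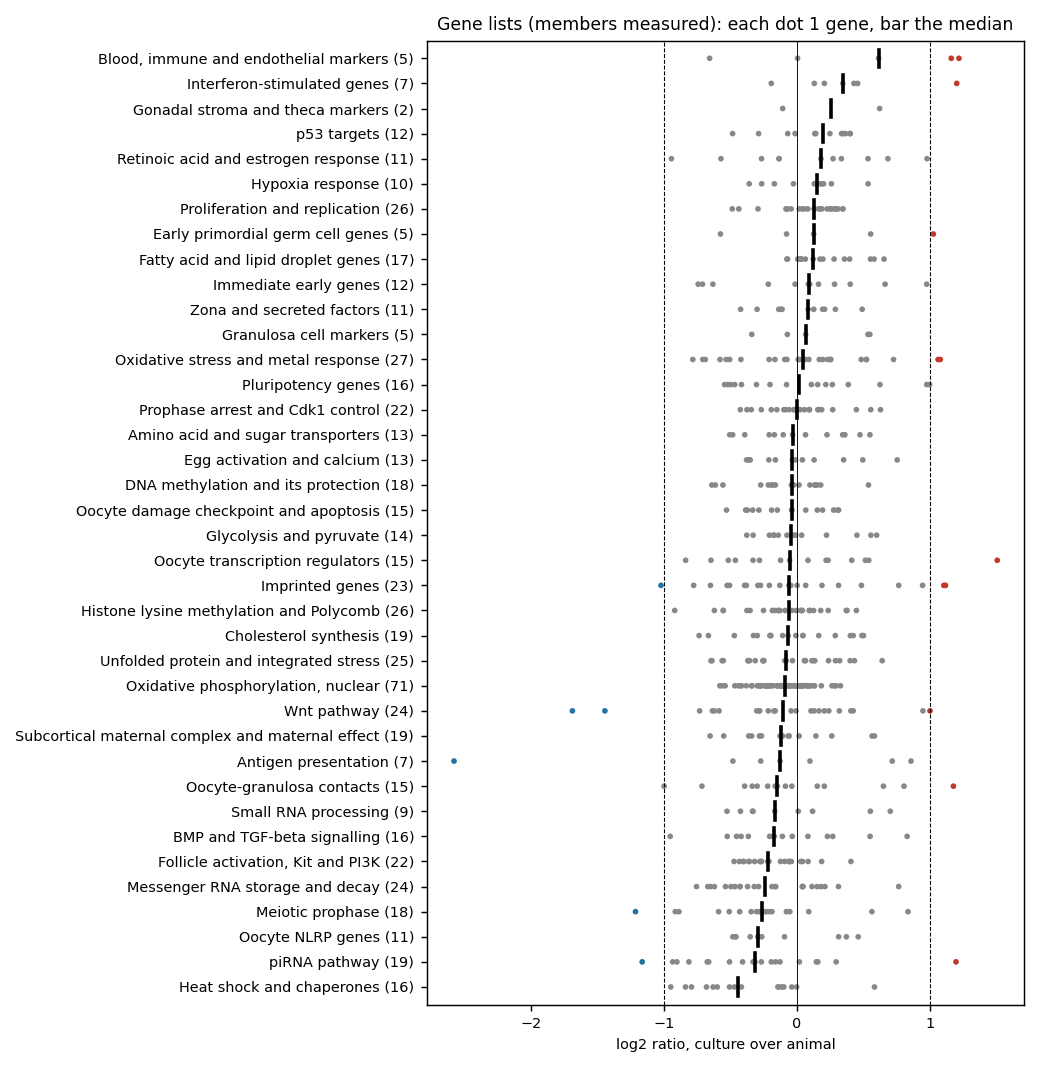
Each dot is 1 gene placed by its log2 ratio, culture over animal, in 38 gene lists ordered by their medians (bars), with the number of measured members in brackets. Heat shock and chaperone genes have the lowest median (-0.44) and blood, immune and endothelial markers, with 5 measured members, the highest (0.62). The 18 distinct called genes lie beyond the dashed lines at 2-fold.

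Over all lists, 629 distinct genes were measured, of which 12 were higher in culture and 6 lower. This is near the share over all genes compared (2.22% and 0.843%), and no list held more than 2 calls on a side.

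Markers of other cells were at low levels in both groups, with exceptions. In bulk RNA, fewer cells of a type and less RNA per cell cannot be told apart. Of 20 granulosa cell markers 5 reached 1 FPKM, and the summed level of all 20 was 42.9 FPKM in culture and 37.0 FPKM in the animal, most of it from Esr2 and Cdkn1c. The defining granulosa genes Amh, Foxl2 and Fshr had 1.13, 0.102 and 0.546 FPKM in culture, against 1.69, 0.387 and 0.735 FPKM in the animal. Of 18 stroma and theca markers 2 reached 1 FPKM, led by Gata4 at 17.2 FPKM in culture and 10.8 FPKM in the animal, and the sums were 22.8 FPKM in culture and 17.5 FPKM in the animal. For 18 blood, immune and endothelial markers the sums were 43.5 FPKM in culture and 23.0 FPKM in the animal. Here 2 of the 5 measured genes were called higher, beside 2.22% of all genes compared. C1qb, a complement subunit, had 21.9 FPKM in culture and 9.24 FPKM in the animal, and Laptm5 had 4.23 FPKM in culture and 1.24 FPKM in the animal. Neither C1qb nor Laptm5 reached 2-fold with a pseudocount of 5. The leukocyte and macrophage genes Ptprc, Lyz2, Csf1r and Tyrobp were at or below 0.0344 FPKM in both groups, and 6 of the 18 markers were listed at 0 in both. Some of the leading markers were also high in other groups of the study. Gata4 had 76.7 FPKM in culture MII oocytes and 64.8 FPKM in animal MII oocytes, and Esr2 28.3 and 36.5 FPKM. Laptm5 had 87.3 FPKM in ES cells. At MII, Cdkn1c, C1qb and Laptm5 were instead below the secondary follicle group of the same route. Which cells these messages came from was not tested.

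Immune genes outside that list were also uneven. Of 30 interferon-stimulated genes 7 reached 1 FPKM and 6 of those 7 lay above 0, with a median of 0.35. Bst2, a restriction factor at the cell surface, was the 1 called gene, at 36.1 FPKM in culture and 15.1 FPKM in the animal. Irf1 had 73.9 FPKM in culture and 58.0 FPKM in the animal. For antigen presentation, the class I gene H2-K1 had 83.9 FPKM in culture and 50.6 FPKM in the animal, while H2-Aa, of class II, was 2.75 FPKM in culture and 21.5 FPKM in the animal. The partners of H2-Aa were near 0: H2-Ab1 had 0.0257 FPKM in culture and was listed at 0 in the animal, Cd74 was listed at 0 in culture and had 0.0163 FPKM in the animal, and the class II regulator Ciita had 0.00550 FPKM in culture and 0.0257 FPKM in the animal. Class II genes differ in sequence between mouse strains, and the part of strain in these values was not tested.

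Of 14 early germ cell genes 5 reached 1 FPKM, and Prdm1, the repressor that specifies primordial germ cells, was called higher at 3.08 FPKM in culture and 1.00 FPKM in the animal. Regulatory sequences of Prdm1 and Dppa3 drive the reporters of the BVSC transgenes by which the animal oocytes were sorted. Dppa3 itself had 434 FPKM in culture and 452 FPKM in the animal. Pluripotency genes had 0 of 16 called, with Sall4 at 26.3 FPKM in culture and 38.0 FPKM in the animal, and Dppa5a at 263 FPKM in culture and 364 FPKM in the animal.

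The same genes were then read at MII, in groups that share no sample with the secondary follicle groups. Of the 11151 genes compared here, 14.9% were at least 2-fold higher in culture at MII and 10.4% lower. Among the 248 genes higher at the secondary follicle stage, 86 (34.7%) were higher at MII and 11 (4.44%) lower. Of the 94 lower genes, 28 (29.8%) were lower at MII and 5 (5.32%) higher. The genes within 2-fold had shares of 14.5% higher and 10.3% lower. On both sides, the share with the same sign at MII stood above the share over all genes compared. The median MII log2 ratio was 0.62 for the higher genes, -0.11 for the lower genes and 0.02 for the rest. When genes were taken by level, 21.7% of the higher genes at 1 to 3 FPKM were higher at MII, against 3.87% of all genes of that level, 44.8% at 10 to 30 FPKM, against 15.3%, and 2 of 3 at 100 to 300 FPKM, against 34.9%. Of the lower genes, 6 of 25 at 1 to 3 FPKM, 8 of 33 at 3 to 10 FPKM, 12 of 24 at 10 to 30 FPKM and 2 of 10 at 30 to 100 FPKM were lower at MII, against 7.84%, 12.0%, 10.9% and 9.67% of all genes of those levels. At 100 to 300 FPKM, 0 of 2 lower genes were. With columns scaled to equal sums, 53.2% of the higher genes were higher at MII, against 27.9% of all genes, and 20.2% of the lower genes were lower, against 1.43%. That scaling moves the median MII ratio over all genes to 0.45, against 0.03 as deposited. The balance over all genes at MII depends on the setting. With a pseudocount of 5, 5.6% were higher and 7.19% lower. Without a pseudocount, a gene needs 1 FPKM or more in both groups of both stages, and 16.1% were higher and 16.4% lower. The higher genes had 28.6% and 26.7% higher at MII under these settings, and the lower genes 26.3% and 37.3% lower. The routes differ in strain at MII as well, so a shared sign cannot be told apart from a difference of strain.

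The ranked genes reached 10 FPKM in either secondary follicle group, and of all 6088 genes that did so 21.9% were higher at MII and 10.4% lower. Of the 20 highest, 13 were also at least 2-fold higher at MII and 0 lower. Fxyd6 had 20.2 FPKM in culture MII oocytes and 0.359 FPKM in animal MII oocytes. Stk32c, a kinase gene related to Stk32a, had 14.5 FPKM in culture MII oocytes and 1.68 FPKM in animal MII oocytes, and Stk32a had 3.50 FPKM in culture MII oocytes and 0.0552 FPKM in animal MII oocytes. Steap4, with 21.6 FPKM in culture MII oocytes and 21.4 FPKM in animal MII oocytes, and Gsto2, with 14.5 FPKM in culture MII oocytes and 14.1 FPKM in animal MII oocytes, were nearly equal at MII. Efna1 was on the other side without a call, at 64.2 FPKM in culture MII oocytes and 126 FPKM in animal MII oocytes. Of the 20 lowest, 9 were lower at MII and 1 was higher. Hmgn3 had 14.3 FPKM in culture MII oocytes and 136 FPKM in animal MII oocytes, and Slc26a5 had 2.95 FPKM in culture MII oocytes and 17.1 FPKM in animal MII oocytes. Klhl9 had 68.4 FPKM in culture MII oocytes and 240 FPKM in animal MII oocytes. The gene that turned was Ufc1, at 2.50 FPKM in culture MII oocytes and 0.0573 FPKM in animal MII oocytes.

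**Figure D5:**
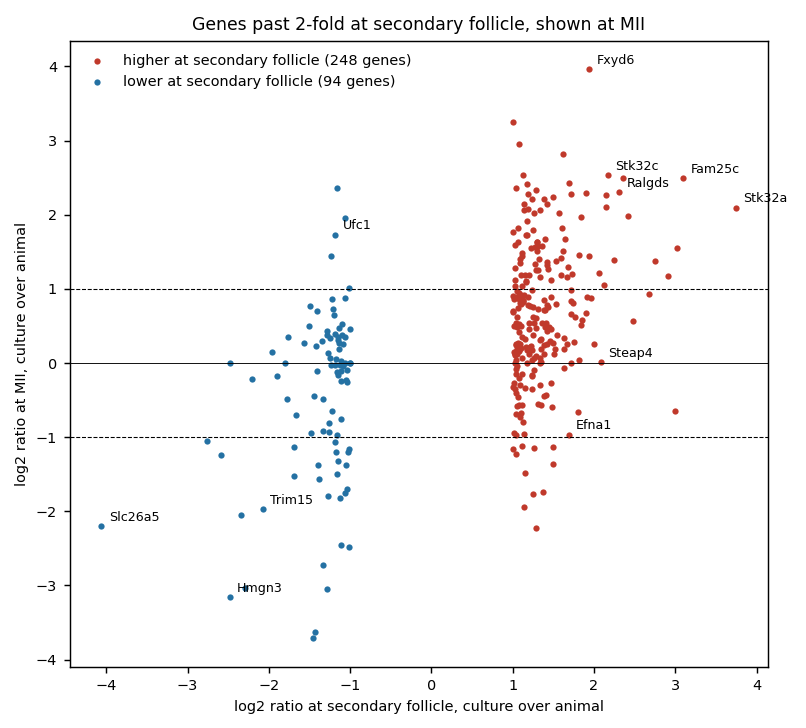
The 248 genes higher and the 94 genes lower in culture at the secondary follicle stage (horizontal axis, log2 ratio, culture over animal) are placed by their log2 ratio between the MII groups (vertical axis). Dashed lines mark 2-fold at MII. Of the higher genes 86 lie above the upper line and 11 below the lower one, and of the lower genes 28 lie below the lower line and 5 above the upper one.

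In all, 16 genes were past 2-fold in opposite directions at the 2 stages. They were 4.44% of the higher genes, where 10.4% of all genes compared were lower at MII. Among the lower genes they were 5.32%, where 14.9% of all genes compared were higher at MII. Such reversals were thus less frequent than calls of that sign over all genes. Actb, cytoplasmic actin, had 116 FPKM in culture and 243 FPKM in the animal at the secondary follicle stage, and 32.4 FPKM in culture and 7.57 FPKM in the animal at MII. Nedd4l, a ubiquitin ligase gene, had 5.86 FPKM in culture and 1.43 FPKM in the animal, and at MII 36.9 FPKM in culture and 96.1 FPKM in the animal. Grb7, an adaptor of receptor tyrosine kinases, was turned in the same way as Nedd4l, with 3.53 FPKM in culture and 0.908 FPKM in the animal, and at MII 11.5 FPKM in culture and 41.8 FPKM in the animal. Actb, Nedd4l and Grb7 were picked after their values were seen.

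Few of the called genes were past 2-fold at the germ cell stage, where few of all genes were. Between reaggregated PGCLCs and E12.5 PGCs, 0.771% of the 11151 genes were higher in culture and 0.565% lower. Of the 248 higher genes 8 were higher there (3.23%) and 2 lower (0.806%). Of the 94 lower genes 2 were lower and 2 higher (2.13% each). On these small counts, same-sign shares stood above those over all genes compared, and so did opposite shares. Only 145 of the higher genes and 49 of the lower genes reached 1 FPKM in either germ cell group. Past 2-fold in the same direction at all 3 stages were Bcat2, Fam25c, Fxyd6, Prdm1 and Tead2 on the higher side and Tuba3b on the lower side. Prdm1 was the closest of them to the limit, with log2 ratios of 1.03 at the secondary follicle and 1.01 at the germ cell stage. Bcat2, the mitochondrial branched-chain aminotransferase, had 5.67 FPKM in culture and 1.49 FPKM in the animal. Tead2, a transcription factor of the Hippo pathway, had 8.51 FPKM in culture and 1.88 FPKM in the animal. Fam25c, whose promoter is printed above, had 16.6 FPKM in reaggregated PGCLCs and 4.09 FPKM in E12.5 PGCs. Tuba3b, an alpha-tubulin gene with a near-identical copy, had 0.282 FPKM in culture and 2.24 FPKM in the animal.

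The called genes were then described by their levels in the other groups and by their transcripts. For 39.9% of the higher genes, the highest of the other 6 groups was the culture MII group, and for 15.3% the animal MII group. The lower genes had 17.0% in the culture MII group and 35.1% in the animal MII group, near the 13.7% and 34.0% of the genes within 2-fold. Fewer of the called genes were present everywhere, as 27.0% of the higher genes and 20.2% of the lower genes reached 1 FPKM in all of the other 6 groups, against 58.3% of the genes within 2-fold. Their longest annotated transcript was shorter, with a median of 2414 bases for higher genes, 2525 for lower genes and 3330 for the rest. The median GC content of these transcripts was 52.8% for higher genes, 48.6% for lower genes and 49.5% for the rest. Long noncoding RNA genes made up 4.84% of the higher genes, 4.26% of the lower genes and 2.41% of the rest. The level itself, which enters the ratio, had a median in the higher group of 6.58 FPKM for higher genes, 6.69 FPKM for lower genes and 12.1 FPKM for the rest, and its part in these features was not tested.

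Calls were spread over the chromosomes. The share of higher genes ran from 1.24% on chromosome 12 to 3.38% on chromosome 15, and on the X chromosome 5 genes were higher and 6 lower of 346. Neighbours were called together in some places. A neighbour was the next compared gene on either side, at any distance. Of 492 neighbours of higher genes, 30 were higher themselves (6.1%, beside 2.22% over all genes compared). Of 186 neighbours of lower genes 4 were lower (2.15%, beside 0.843%). Each pair was counted from both ends, so these are 15 pairs higher together and 2 pairs lower together. Both lower pairs belong to a single run, Gm16548, F5 and Slc19a2. Pairs higher together included Hoxd8 and Hoxd9, whose starts lie 6852 bases apart, Ly6a and Ly6e, Sec14l2 and Sec14l3, and the run of Ptpn6, Grcc10 and Atn1. Genes of the same family stand side by side in the first 3 pairs, and whether reads were shared between them was not tested. Neighbouring calls also went in opposite directions in 6 of 23 pairs, such as Krt79, higher, and Krt8, lower.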

How the data were processed

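Poly(A) RNA was sequenced with directional libraries from 23 samples in 8 groups. The authors deposited a table of FPKM values, 1 per gene and group. Per the submitters' processing notes, TopHat2, Bowtie2 2.0.13, Cufflinks and Cuffdiff 2.2.1 were used with mm10. The annotation, and how replicates were combined, are not given in the sources used here. Read depth is unknown and cannot be recovered, because the values are not whole multiples of a step and the lowest above 0 are 2.02e-06 FPKM in culture and 4.78e-06 FPKM in the animal. No interval, floor, standard deviation or test is therefore given, and the number of samples adds no measure of error. FPKM is relative to the whole library, so a gain in a few abundant genes lowers the values of all others.

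From the table, log2 ratios of FPKM + 1 were taken over genes with at least 1 FPKM in either group, and 2-fold was the size for a call. The pseudocount of 1 pulls ratios of low genes towards 0. Named genes were the 20 highest and 20 lowest ratios among genes with 10 FPKM or more in the higher group and no predicted, clone or small RNA name, the 10 most abundant of each group, up to 4 called members of each list (or, with fewer than 2 called, the 2 widest with 10 FPKM or more), and a fixed set of oocyte genes. A ranked gene on the lower side is not reported here. Other genes named were picked after their values were seen. Members, lists and rules were chosen with earlier results of these data known. Of the 11151 symbols, 11108 matched the RefSeq gene table of GRCm38.p6, 10513 of them as written, and promoter sequences are RefSeq's. Transcript length and GC content came from GENCODE transcripts. The steps were checked on simulated data, with changes larger than 2-fold placed in genes with 10 FPKM or more in the animal. Changes in genes of lower level were not part of that check. Alternatives were other pseudocounts, filters and scalings. Python 3.11.15, pandas 2.3.3, NumPy 2.4.6 and matplotlib 3.10.9 were used.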

Additional observations from a re-analysis of the deposited data

Results flagged for a closer look

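Ufc1, the conjugating enzyme of the UFM1 modifier, was the only gene of the 40 ranked ones past 2-fold in opposite directions at the stages compared. Its log2 ratio of culture over animal was -1.18 at the secondary follicle stage and 1.73 at MII. The MII levels were low, at 2.50 FPKM in culture and 0.0573 FPKM in the animal. Of all genes with 10 FPKM or more in either secondary follicle group, 21.9% were higher in culture at MII, so 1 such gene is no excess. The difference between the stages was not tested, since each group has 1 value.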

How the results depend on the processing

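The alternatives changed counts more than direction, and no ranked or listed gene that was called changed sign under those run. The number of genes higher in culture was 248 as reported, 513 with a pseudocount of 0.1, 49 with a pseudocount of 5 and 151 with a filter of 5 FPKM. For genes lower in culture, the number was 94 as reported, and 209, 19 and 55 under the same settings. Of 147 genes named by rule, most of which were never called, 20 that had reached 2-fold did not with a pseudocount of 5. Of the called list genes outside the ranking, only Bst2 still reached 2-fold at that setting. Lists with a member past 2-fold numbered 18 with a pseudocount of 0.1 and 4 with 5, against 11. Of the 38 list medians, 13 moved by 0.1 or more with a filter of 5 FPKM and 12 with no filter. Without a pseudocount 7 moved, and with a pseudocount of 5, 4 moved. Some of the medians given above are no larger than such a shift. With equal sums, 53.2% of the higher genes were higher at MII, against 34.7% as reported, while the share over all genes was 27.9%, against 14.9%, and the lower genes had 20.2% lower at MII, against 29.8%. No filter, quantile normalization, median centring, no pseudocount, and leaving out small RNA, predicted and ribosomal protein genes kept both counts within 1.5 times. No paired analysis was possible because the table holds 1 value per group, and for the same reason no replicate was left out. Depth is unknown, so its limit on each level cannot be given.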
